A study of Bos taurus with 12 samples.

Results

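A block near position 33 Mb of cattle chromosome 21 held 524 of the 17730 single cytosines and 248 of the 7290 windows of 500 bp in the authors' deposited tables of sperm DNA methylation. Its members are all rows on chromosome 21 between 32.85 and 33.08 Mb on the ARS-UCD1.2 build. The block was chosen by the very comparison described here, because called sites crowd there, so its counts and differences are a description and were not tested. The 524 cytosines belong to 363 CpGs, with 261 cytosines on the plus strand and 263 on the minus strand.

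The study measured genomic DNA of 12 bull sperm samples (Bos taurus) by enzymatic methylation sequencing, in which enzymes instead of bisulfite convert unmethylated cytosines. The samples form 6 with low and 6 with high daughter fertility, that is, the fertility of a bull's female offspring. The labels give no treatment, genotype, breed, age, batch or pairing for either group, and all 12 share the tissue and the sex. The tables hold the authors' comparison of the groups and no value per sample, so neither the spread between samples nor the depth behind a value is known here, and sperm purity cannot be read from them.

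Most methylation in mammalian DNA sits on the cytosine of the dinucleotide CpG, and a CpG carries 1 such cytosine on each strand. CpG islands are stretches where CpGs are dense. Many lie at gene starts and most of those are unmethylated, in sperm as in other cells, while most CpGs elsewhere in sperm DNA are methylated. A maintenance enzyme copies methylation from the old to the new strand at each cell division, so both strands of a CpG usually carry the same state.

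A difference is given in percentage points with the sign of the authors' deposited table. The headers and labels do not say which group was subtracted, so a negative value cannot be assigned to low or high fertility. A locus was called at an authors' q-value below 0.05 and a difference of at least 10 points. A window is called a tile below, and tiles start every 100 bp, so neighbours overlap. How the authors' test treated the variation between samples is not given in the sources used here.

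Of the 524 sites in the block, 47 (8.97%) were called, against a background of 5.94% over all listed sites. Of these, 42 were negative, where the background of negative calls was 4.78%, and 5 were positive, where it was 1.16%. These shares describe a block picked for its calls, and nothing is read from them. The called sites had a median of -14.3 points, and 6 of them reached 20 points or more. Over all 524 sites the differences were small, with a median of -1.22 points (quartiles -4.39 and 0.91) and a range from -25.9 to 11.9. Negative values made up 66.0% of them (346 sites), with 176 positive and 2 at 0. Over all listed sites the median was -1.01 and 59.0% were negative, and over the 697 sites of chromosome 21 outside the block the median was -0.60, with 55 called. The medians of the block and of all listed sites thus lay close together, while most negative calls sat in a few short stretches and the 5 positive calls lay singly.

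**Figure D1:**
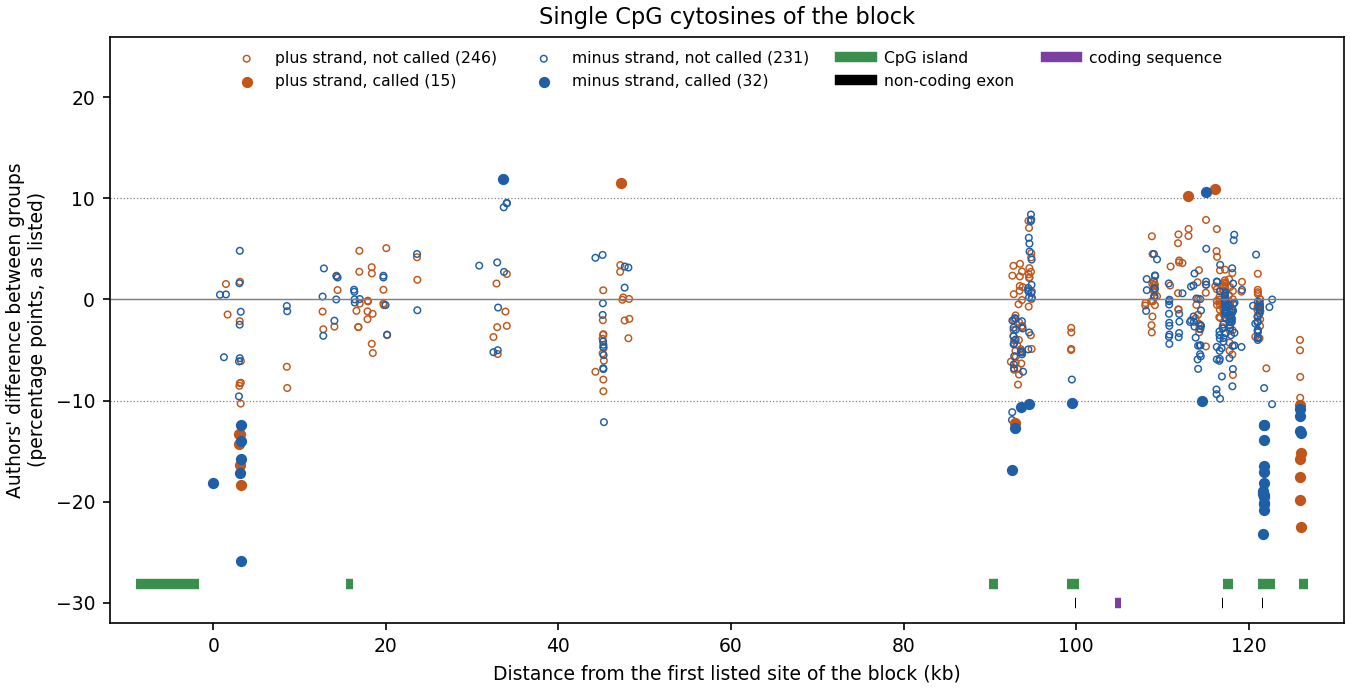
Each point is 1 cytosine of the block, placed by its distance in kb from the first listed site, with the authors' difference in percentage points on the vertical axis. Colour gives the strand, filled points are called, dotted lines mark 10 points, and bars at the bottom show annotated features. The calls below -15 points gather near 3, 122 and 126 kb, with 2 others at 0 and 93 kb.

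The listed sites formed 10 stretches when neighbours up to 2 kb apart were joined, and 7 of these held a call. The gaps between stretches ran from 3223 to 44208 bp, and no site was listed in them. The first site of the block was chr21:32902968 (minus strand, -18.1 points, q = 0.0102 in the authors' deposited table), itself a called site. The last was chr21:33028975 (plus strand, -22.6 points, q = 0.000209) in the same authors' deposited table. The nearest listed sites outside lay 94394 bp before the first and 456237 bp after the last, with -1.11 (q = 0.644) and -1.38 points in the authors' deposited table (q = 0.617). The block thus ended on called sites on both sides, and its edges were set by where the listing stops.

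The first stretch, chr21:32902968-32906178, held 31 sites, of which 11 were called, all negative. Within it, 25 sites on 13 CpGs fell inside 235 bp (chr21:32905944-32906178), 22 of them negative and 10 called, with a median of -9.58. The lowest single value of the whole block was there: chr21:32906172 on the minus strand stood at -25.9 points in the authors' deposited table (q = 2.84e-06). Its partner on the plus strand, chr21:32906171, was listed at -13.6 (q = 0.0650) in the authors' deposited table and missed the q threshold. The called sites were not a run of neighbours. The site chr21:32906155 had -18.3 (q = 0.00668) in the authors' deposited table while its partner on the minus strand had -1.21 (q = 0.754). Similarly, chr21:32906033 had -16.4 (q = 0.0182) in the authors' deposited table, against -2.49 (q = 0.653) for its partner. These pairs were picked after their values were seen, for their width. The annotation puts these sites downstream of the largest island of the block, chr21:32894042-32901273 (7232 bp), which itself held no listed site.

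Stretches 2 to 4 (chr21:32911493-32911540, chr21:32915640-32923114 and chr21:32926579-32926620) held 49 sites and no call. The 4 sites of the first of them were all negative, from -8.76 to -0.65. The 41 sites of the next split almost evenly, 22 negative and 19 positive, with a median of -0.19. This region surrounds the island chr21:32918410-32919207 (798 bp), to which 100 sites and 90 tiles of the block were assigned as their closest feature, up to 32 kb away.

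Stretches 5 and 6 each held 1 call, and both were positive. The site chr21:32936561 on the minus strand stood at 11.9 points in the authors' deposited table (q = 1.05e-06), the highest value of the block, 17354 bp from its closest feature. The other, chr21:32950222 on the plus strand, stood at 11.5 (q = 0.000911) and 31015 bp from the same island in the authors' deposited table. Both were annotated as distal intergenic, and they were the only calls among the 51 sites of that class. Some 2.0 kb before the second, 22 sites of chr21:32947255-32948238 pointed the other way: 19 were negative, with a median of -4.59, and none was called. The lowest of them, chr21:32948238, had -12.1 points at a q of 0.0565 in the authors' deposited table.

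The seventh stretch, chr21:32995394-32997829, lay after the longest gap and held 87 sites on 53 CpGs, with 5 calls, all negative. Its median was -2.26 points. Its lowest site, chr21:32995538 on the minus strand, had -16.8 points in the authors' deposited table (q = 8.18e-05). Next came chr21:32995930 with -12.7 (q = 0.000273) and chr21:32995874 with -12.2 (q = 6.80e-05) in the authors' deposited table, so 3 of the calls lay within 393 bp. The other calls were chr21:32996618 (-10.7, q = 0.00369) and chr21:32997463 (-10.3, q = 0.0173) in the authors' deposited table. All 87 sites were assigned to the island chr21:32992916-32993869 (954 bp), which lies before them and held no listed site. The end of the stretch was mixed: chr21:32997721 stood at 8.40 (q = 0.0297) in the authors' deposited table, 258 bp from the last negative call.

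The annotated transcripts of the block lie in the remaining stretches or in the gap between the first of these and the next. The authors' annotation names 3 transcripts without a gene, each with 1 exon of 115 to 119 bp next to the listed loci, and 1 gene. That gene is ENSBTAG00000024311, with a coding segment of 724 bp at chr21:33007430-33008153 on the plus strand, and the annotation gives it no name. It was the closest feature of 42 sites and 27 tiles, and none of either was called. Its 42 sites were nearer to 0 than the block as a whole, with a median of 0.50, and 24 of them were positive.

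The first short exon, of transcript ENSBTAT00000077061 (chr21:33002799-33002917, 119 bp, plus strand), lies inside the island chr21:33001944-33003266 (1323 bp). Its 6 listed sites stood 334 to 426 bp before its start and were all negative. The authors' deposited table gives the 4 plus-strand sites -5.0, -2.81, -4.90 and -3.26 points. It gives the 2 minus-strand sites -7.92 (q = 0.0350) and -10.3 (chr21:33002465, q = 0.00463) in the same authors' deposited table, and the latter was the only call. No site was listed in the exon itself.

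The exon of ENSBTAT00000082925 (chr21:33019917-33020031, 115 bp, minus strand) had 130 sites assigned to it and 4 calls, of which 3 were positive. In the authors' deposited table these were chr21:33019058 (11.0 points, q = 0.0377, 859 bp from the exon), chr21:33017983 (10.7, q = 0.000804) and chr21:33015934 (10.3, q = 0.0414). The negative one, chr21:33017490, stood at -10.05 (q = 0.0238) in the authors' deposited table. The island chr21:33020005-33021148 (1144 bp), which overlaps the 5′ end of this exon, held 82 listed sites, more than any other island of the block, and no call.

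The densest run of calls in the block lay at the exon of ENSBTAT00000080508 (chr21:33024523-33024641, 119 bp, minus strand), inside the island chr21:33023989-33026059 (2071 bp). On the minus strand a transcript runs toward lower coordinates, so the bases just above the exon lie before its 5′ end. There, 14 sites within 91 bp (chr21:33024655-33024745, 14 to 104 bp before the exon) were called, and all were negative, with a median of -19.1 points. In the authors' deposited table they ran from -23.2 (chr21:33024655, q = 5.62e-06) to -12.4 (chr21:33024745, q = 0.00461). The other 3 at 20 points or more were chr21:33024711 (-20.8, q = 7.19e-07), chr21:33024724 (-20.3, q = 1.05e-06) and chr21:33024683 (-20.2, q = 6.52e-06) in the authors' deposited table. Next to these came chr21:33024707 (-19.5), chr21:33024720 (-19.4) and chr21:33024658 (-19.2), with q between 2.84e-06 and 7.64e-05 in the authors' deposited table. Neighbouring sites had a median spacing of 5 bp, so a read can span several of them, and they are not separate measurements. All 15 sites listed in these 91 bp were on the minus strand and none on the plus strand. The only one not called, chr21:33024743, stood at -8.77 (q = 0.0628) in the authors' deposited table.

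On the other side of the exon, in the same island, 35 listed sites ranged from -4.01 to 2.55 points with a median of -1.04 and no call. The last of them was 367 bp from the first called site, and no site was listed in between. The tile chr21:33024201-33024700 over that gap had -8.60 points in the authors' deposited table, between -1.23 and -17.0 for the tiles starting 100 bp before and after it. It held 25 listed sites from both sides of the gap, 7 of them called, so its value is not that of the gap alone. On the upper side the next listed site, chr21:33024998 on the plus strand, had -6.81 points in the authors' deposited table (q = 0.380). Beyond it the island listed 3 more minus-strand sites, with -0.75 (chr21:33025352), -10.4 (chr21:33025661, q = 0.0965) and 0 points (chr21:33025675) in the authors' deposited table, none of them called. On the exon's upstream side the island thus held the called run and, farther out, sites of mixed size.

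The last stretch, chr21:33028898-33028975, held 14 sites on 10 CpGs within 78 bp, all of them negative and 10 called, with a median of -12.2 points. These lie in the first part of the island chr21:33028755-33029874 (1120 bp), with no exon or gene assigned. Here both strands took part, with 6 calls on the plus and 4 on the minus strand. The strongest in the authors' deposited table were chr21:33028975 (plus, already given), chr21:33028954 (plus, -19.9 points, q = 7.44e-06) and chr21:33028947 (plus, -17.5, q = 7.64e-05). The 4 sites that were not called stood at -4.00, -5.03, -9.73 and -7.67 points in the authors' deposited table.

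**Figure D2:**
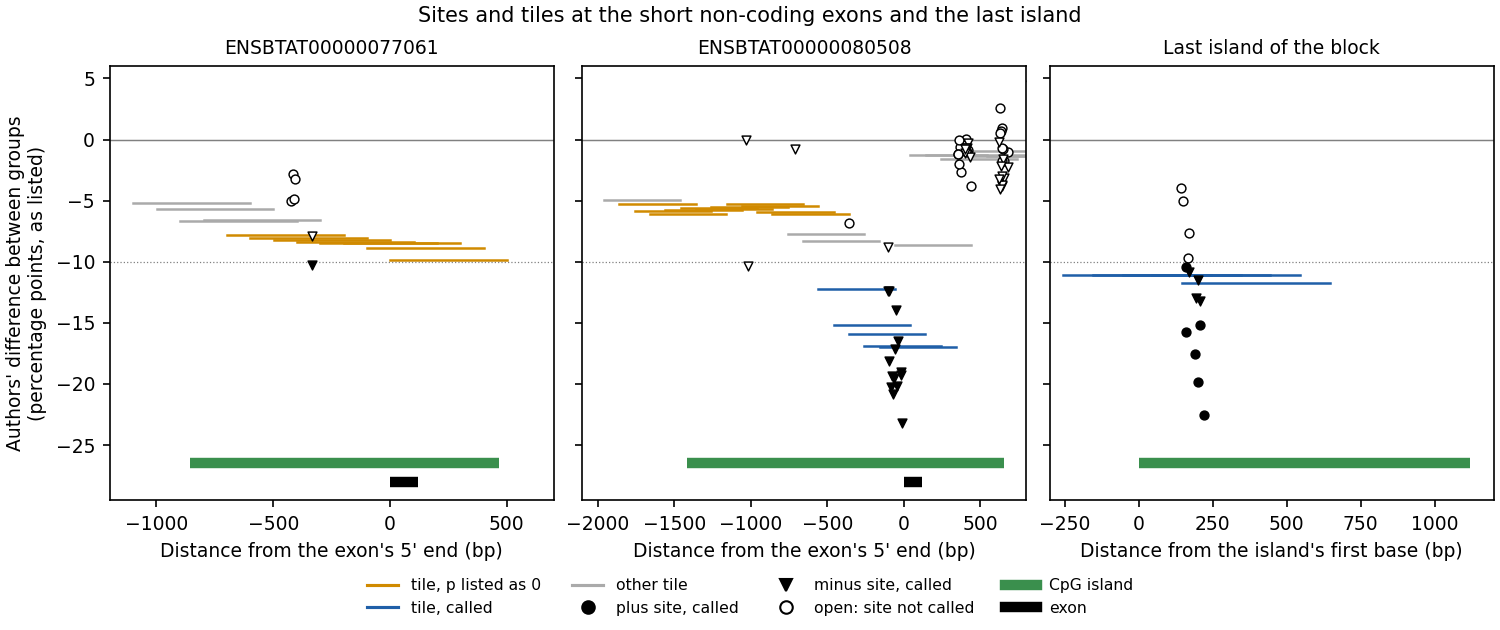
The close views place sites (circles for plus, triangles for minus, filled where called) and tiles (horizontal lines over their 500 bp) by distance in bp from the 5′ end of an exon or the first base of the last island, with the difference in points on the vertical axis. Beside ENSBTAT00000080508 the 14 called sites fall from -12.4 to -23.2 just before the exon, while the 35 sites on its other side lie between -4.01 and 2.55.

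Islands and calls overlapped more than the annotation shows. By coordinates 156 sites (29.8%) lay inside 1 of the islands named in the tables, and 25 of them were called, all negative. Outside islands 22 of 368 were called, 17 negative and 5 positive. So 53.2% of the calls, and none of the positive ones, lay inside an island. Of the 25, 14 came from the run before the exon of ENSBTAT00000080508 and 10 from the last stretch. The annotation lists 1 closest feature per site, and 15 called sites inside an island are listed under an exon instead. By annotated class, sites within a promoter held the largest share of calls (15 of 58, 25.9%), followed by sites within a feature (10 of 91), downstream of one (20 of 324) and distal intergenic (2 of 51). The share over all listed sites was 5.94%, and 14 of the 15 promoter calls were the 91 bp run before ENSBTAT00000080508, whose sites are not separate measurements. All 10 calls within a feature came from the last stretch, whose sites lie within 78 bp and are not separate measurements either. The 90 block sites that the annotation itself puts inside an island were negative in 82.2% of cases with a median of -1.77. Over all 438 such sites that the table lists, 53.4% were negative, with a median of -0.11, and these include the 90. Of the 90, 10 (11.1%) were called, and of all 438, 12 (2.74%), the same 10 among them. The 90 come from few islands with CpGs close together, so they are not separate measurements.

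By strand, 32 of 263 minus sites (12.2%, 30 negative and 2 positive) and 15 of 261 plus sites (5.75%, 12 negative and 3 positive) were called. The share over all listed sites, both strands together, was 5.94%, close to the plus share. The run before the exon of ENSBTAT00000080508, with minus sites alone, holds 14 of the minus calls, and its sites are not separate measurements. Nothing about the strands in general is read from these shares. Medians were -2.10 on the minus and -0.70 on the plus strand. Of the 363 CpGs, 161 were listed on both strands and 202 on 1 strand. Among the 161 pairs, 112 (69.6%) had the same sign, 81 both negative and 31 both positive, and the median gap between strands was 3.0 points. The strands' differences had a Spearman correlation of 0.40 and a Pearson correlation of 0.47 over these 161 CpGs, which share libraries and lie close together. In the 18 pairs with a call, both strands had the same sign.

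Of these 18 pairs, 4 were called on both strands. In the authors' deposited table the CpG at chr21:32906031 had -13.3 on the plus and -17.2 on the minus strand. The other 3 lay side by side in the last stretch, at chr21:33028947 (-17.5 and -13.0), chr21:33028954 (-19.9 and -11.5) and chr21:33028962 (-15.2 and -13.2) in the authors' deposited table. A further 14 pairs were called on 1 strand only, and 25 called CpGs had only 1 strand listed. The larger part of the called CpGs thus had no called partner. Whether depth differed between strands was not tested, since no coverage is given.

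**Figure D3:**
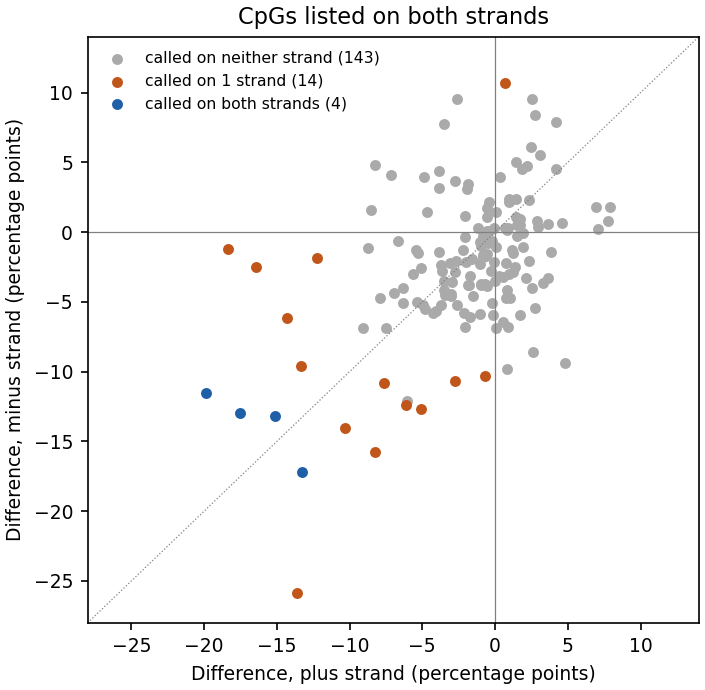
Each point is 1 of the 161 CpGs listed on both strands, with the difference on the plus strand (horizontal, points) against that on the minus strand (vertical, points). Orange points were called on 1 strand (14), blue points on both (4), and the dotted line marks equal values. The 4 blue points all lie below -10 on both axes, while most grey points lie near 0 with either sign.

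The threshold split sites with nearly equal values. Just inside it, by size of difference at q below 0.05, were chr21:33017490 (-10.05) and chr21:33015934 (10.3) in the authors' deposited table. Just outside were chr21:33028921 (-9.73, q = 0.0458) and chr21:32936988 (9.57, q = 0.0460) in the authors' deposited table. In all, 26 sites had a q below 0.05 and a smaller difference, 17 of them negative, and 6 sites differed by 10 points or more with a q that missed the threshold.

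Tiles cover 500 bp, and 62 of the 248 tiles held no listed site, so at least these rest on cytosines that are not in the site table. How the authors combined the reads of a tile is not given in the sources used here. Of the 248, 15 (6.05%) were called, against a background of 2.78% over all tiles. All 15 were negative, with a background of 2.63% for negative and 0.151% for positive calls. The median difference was -0.59 points (quartiles -2.27 and 0.77), and 154 tiles (62.1%) were negative and 94 positive. Over all tiles the median was -0.95 and 71.6% were negative. Over the 166 tiles of chromosome 21 outside the block the median was -0.76, 74.7% were negative and none was called. The block's tiles were thus less often negative than either of these sets, although all of its called tiles were negative. A q below 0.05 was common at any size of difference: 194 tiles of the block (78.2%) and 71.8% of all tiles had one. At 5 points or more there were 45 such tiles, with a background of 15.4%, and all of them were negative.

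The 15 called tiles formed 3 regions of 900 bp, each of 5 overlapping tiles. Each region lay over a cluster of called sites in a different site stretch, and covered only part of the first and the ninth stretch. The ninth, chr21:33010969-33025675, held 286 sites with 15 negative and 3 positive calls. The region chr21:32905701-32906600 had tiles from -13.3 to -10.1 points in the authors' deposited table. The region chr21:33024301-33025200, over the exon of ENSBTAT00000080508 and the bases before it, ran from -17.0 to -12.2 in the authors' deposited table. Its tile chr21:33024301-33024800 was the lowest of the block (-17.0, q = 3.92e-157 in the authors' deposited table) and held 15 listed sites with a mean of -17.4. The third, chr21:33028501-33029400, had 4 tiles with the identical value -11.1 and 1 tile at -11.7 in the authors' deposited table, and the latter held 13 of the 14 listed sites behind the other 4. Across the block, 20 tiles shared their values with another tile.

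**Figure D4:**
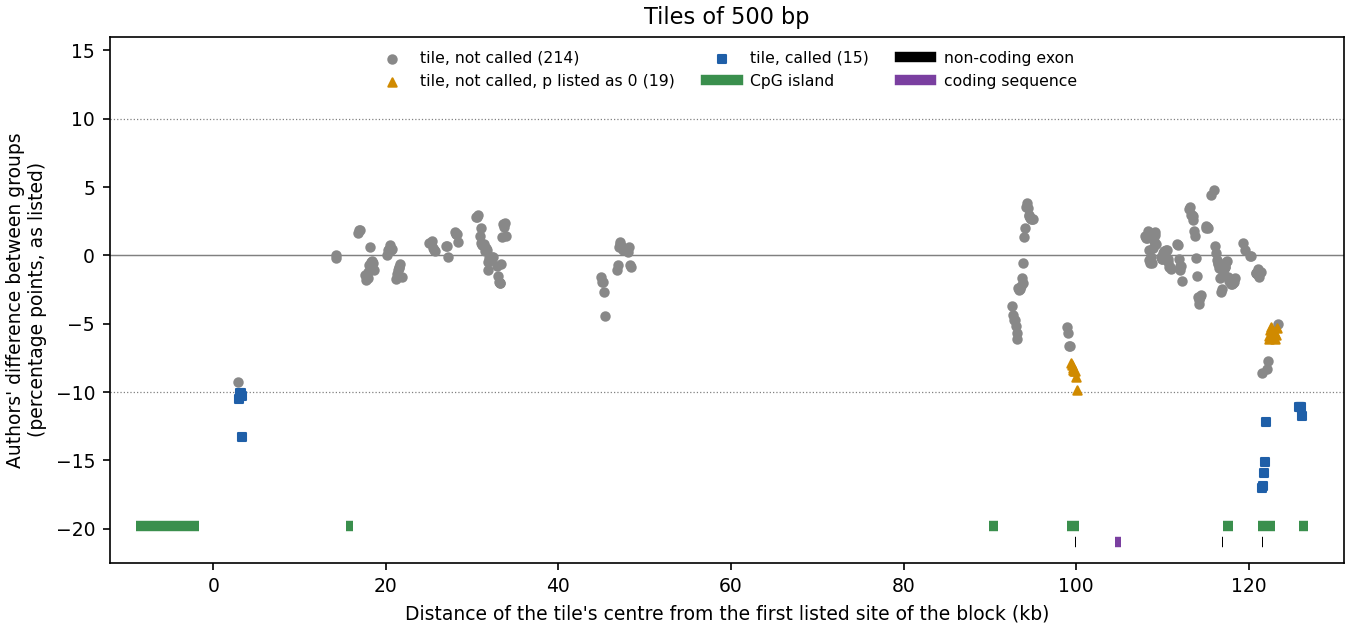
Each point is 1 tile, placed by its centre in kb from the first listed site of the block, with the authors' difference in points on the vertical axis. Blue squares are the 15 called tiles, in 3 places, and orange triangles are the 19 tiles with a p-value listed as 0, in 2 places between -9.86 and -5.25. The bars at the bottom mark islands, exons and the coding segment.

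A second kind of tile stood out by its p-value. The authors' deposited table gives 27 tiles of all 7290 a p-value of exactly 0, and 19 of these (70.4%) lay in the block, the other 8 on chromosome 2. The 19 formed 2 runs, and both overlapped an island that holds a 119 bp exon. The first run, 8 tiles at chr21:33002101-33003300, covered the exon of ENSBTAT00000077061 and had -9.86 to -7.84 points in the authors' deposited table. The second, 11 tiles at chr21:33025001-33026500, followed the called region before the exon of ENSBTAT00000080508 and had -6.13 to -5.25 points in the authors' deposited table. None of the 19 was called, because none reached 10 points. By contrast the called tile chr21:33028501-33029000, at -11.1 points, had a p of 1.56e-45 in the authors' deposited table, so the smallest p-values did not go with the largest differences. Read coverage was not analysed here and its part in this was not tested. Only 11 of the 19 held a listed site.

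Around the exon of ENSBTAT00000077061 both tables were negative throughout. Its 6 sites held 1 call, and the 12 tiles of chr21:33001701-33003300, from -9.86 to -5.22, held none. Of these tiles, 6 held no listed site. The tile with the lowest of these values, chr21:33002801-33003300 (-9.86 in the authors' deposited table), lay 0.142 points short of a call.

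In the block, the tiles touching an island shared 1 sign. All 59 tiles that overlapped an island by coordinates were negative, with a median of -5.66 and 10 calls. They came from few islands: chr21:33001944-33003266 (12 tiles), chr21:33020005-33021148 (16), chr21:33023989-33026059 (26) and chr21:33028755-33029874 (5). Neighbouring tiles overlap, so the 59 are not separate measurements. The 189 others split evenly, 95 negative and 94 positive, with a median of -0.0069 and 5 calls, the region chr21:32905701-32906600. The called shares were 16.9% of the 59 and 2.65% of the 189. Over all listed tiles 71.6% were negative and 2.78% were called. The annotation's own class gave the same sign for fewer tiles: 22 were put inside an island, all negative, with a median of -5.62. Of these 22, 2 (9.09%) were called. Over all 660 such tiles of the table, these included, 57.9% were negative, the median was -0.12 and 5 (0.758%) were called.

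Positive tiles were small. The highest, chr21:33018701-33019200, had 4.80 points in the authors' deposited table (q = 1.77e-09) and holds the positive called site chr21:33019058. The seventh stretch changed sign along its length. Its lowest tile, chr21:32995801-32996300, had -6.15 points in the authors' deposited table (q = 1.65e-16). Only 1.2 kb on, chr21:32997001-32997500 had 3.81 (q = 3.95e-14) in the authors' deposited table, although the called site inside it, chr21:32997463, was negative. In the fifth stretch the highest tile, chr21:32933401-32933900, had 2.95 points in the authors' deposited table (q = 1.04e-09). The tile with the most listed sites, chr21:33019901-33020400, held 43 of them and stood at -0.87 points in the authors' deposited table (q = 9.39e-09), beside a mean of -0.55 over its sites.

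Sites and tiles come from the same reads, so their likeness is no independent check. In 162 of the 186 tiles with a listed site (87.1%) the tile had the sign of the mean of its sites, and the Spearman correlation was 0.84 over these 186 overlapping tiles. All 15 called tiles held a called site. Of the 47 called sites, 34 lay in a called tile, 12 in tiles that were not called and 1 in no tile. All 5 positive calls were among the 13 outside called tiles.

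**Figure D5:**
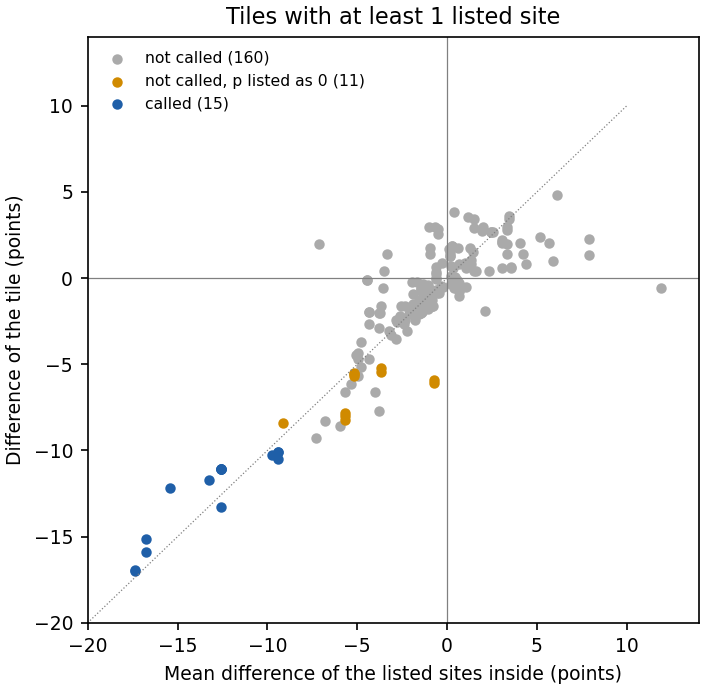
Each point is 1 of the 186 tiles with a listed site, with the mean difference of those sites (horizontal, points) against the tile's own difference (vertical, points). The dotted line marks equal values. The 15 called tiles (blue) lie at the lower left close to the line, and the 11 tiles with a p-value listed as 0 (orange) lie between -8.42 and -5.25 on the vertical axis.

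Exons of the same length occur elsewhere in the tables. The annotation holds 18 transcripts without a gene whose listed exon is 119 bp long, and 16 of these lie outside the block. Only 1 of the 16 had a listed locus within 1 kb, ENSBTAT00000066595 on chromosome 20, so the pattern of the block can hardly be compared with others of its kind. Its 3 tiles had -3.27 to -2.41 points with p between 1.57e-73 and 1.28e-51 in the authors' deposited table, and none was called. In the RefSeq gene table of the later assembly ARS-UCD2.0, chromosome 21 has 2 ribosomal RNA genes, LOC112443250 and LOC112443340, each also 119 bp long. They lie between LINGO1 and ODF3L1, beside 3 protein-coding genes without a name, 2 long non-coding RNA genes and 2 pseudogenes, of which LOC112443351 is again 119 bp. The positions of the builds were not compared, so whether these are the exons of the block is not known.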

How the data were processed

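Sperm DNA of 12 samples (6 low, 6 high daughter fertility) was profiled by EM-seq. Tools named in the submitters' processing notes are Bismark, methylKit and Trimmomatic, with ARS-UCD1.2 as the build; versions, roles and settings are not given in the sources used here. The authors deposited, for each site and tile, a p-value, a q-value, a difference in percentage points and the closest annotated feature with its distance, per the file headers. How q was adjusted is not stated: it lay below p for 84 sites and 160 tiles of the block. Values per sample and coverage were not analysed here, so depth is unknown. No test of the groups, no interval across samples and no sample left out was possible. The design had foreseen a model on counts should the tables hold them.

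Rows were taken by position, called at q below 0.05 and 10 points, joined over gaps of 2 kb (and 1 kb) and placed in islands by coordinates, with Python 3.11.15, pandas 2.3.3, numpy 2.4.6, SciPy 1.17.1 and matplotlib 3.10.9. The scripts were tested on simulated data. Members, lists and thresholds were chosen with earlier results of these data known, and the joining gaps after the block's data were seen. Named loci are the 10 lowest and 5 highest called CpGs, CpGs called on both strands, calls nearest each gene and edge, sites at the threshold, the 5 lowest and 3 highest tile groups and the tile with most sites; others named were picked after their values were seen. The RefSeq table (ARS-UCD2.0) gave names, types, lengths and order only, and its Ensembl numbers matched 0 of the 1 gene named. No genome of the files' build was at hand, so no sequence is printed.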

Additional observations from a re-analysis of the deposited data

How the results depend on the processing

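Of 34 alternatives over 6 results, 24 changed no value by more than its limit. That limit was a fixed factor for counts and a 95% binomial interval over sites or tiles for medians and shares. The interval treats neighbouring sites and overlapping tiles as separate, so it is a yardstick and no test. Only a median could reverse its sign, and 0 did. The 47 called sites became 73 with no minimum difference, 23 at 15 points and 6 at 20 points, and 33 without the 1 kb stretch that held the most calls, an alternative chosen after seeing the data. The negative share of calls, 89.4%, was 100% at 15 and at 20 points. It was 80.8% with no minimum difference and 84.8% without that 1 kb stretch. The 15 called tiles became 45 at 5 points, 194 with no minimum and 3 as merged regions. The median tile difference, -0.59 points, was -0.0499 with 1 value per merged region, where each run of overlapping or adjoining tiles of 1 sign counts once. The share of CpGs with the same sign on both strands, 69.6%, was 100% for the 17 pairs with both differences at 5 points or more. Moving the edges (20 kb off or 50 kb added) left 47 called sites and 15 called tiles, but this outcome was fixed by the listing. No listed site or tile lies in the 20 kb taken off at either edge. The nearest listed site before the block, chr21:32808574, was not called. The nearest site after it and the nearest tiles lie beyond the added 50 kb. No paired analysis was possible because the labels share no replicate numbers and the tables hold no value per sample. Depth is unknown, so what it limits cannot be given.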

Other observations

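Of the block's tiles, 17 had a q-value below 0.05 with a p-value of 0.05 or more, since the authors' q lies below their p there, and these tiles are counted among the 194.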
